A study of Mus musculus with 11 samples.

Results

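The integrin and laminin genes were described in RNA from the left ventricle of 11 mice, 1 library per mouse. All genes of the deposited tables whose mouse symbol is that of an integrin alpha chain (Itga followed by a number, or Itgad, Itgae, Itgal, Itgam or Itgav), an integrin beta chain (Itgb followed by a number) or a laminin alpha, beta or gamma chain (Lama, Lamb, Lamc) were taken. They numbered 36 of the 25006 genes counted, 25 of them integrin genes and 11 laminin genes. Itgax, the alpha chain of a further leukocyte integrin, is not matched by that naming rule and is given only beside the leukocyte chains. Of the 36 genes, 35 passed the filter on low counts. The exception was Lama1, which lay at or below 0.646 CPM (counts scaled by library size, here with TMM factors) in every library.

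The mice were naive or had undergone permanent ligation of the left anterior descending coronary artery (MI, myocardial infarction), with tissue taken 9 days later. The study's methods give the MI tissue as infarcted left ventricle. For naive mice they give left ventricle of about equal mass and position. The genotype label was Vegfc fl/fl for the control mice and Vegfc fl/fl ; LysMCre for the others, here called Vegfc-deficient. The protocol text and the study's methods instead give the controls as LysMCre mice, and a legend gives C57BL/6 or floxed animals, so whether the controls carried the Cre is not settled by these sources. LysMCre places the recombinase in the Lyz2 locus, which drives it in macrophages, monocytes and neutrophils, while the libraries are of whole tissue. Groups held 2 naive control libraries (M45, M44), 3 naive Vegfc-deficient libraries (M34, M150, M149), 3 MI control libraries (M38, M006, M40) and 3 MI Vegfc-deficient libraries (M35, M913, M900), and values below are given in that order. Age and sex were not in the labels.

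Facts of the libraries that touch the results come first. Total counts ran from 10824989 to 26782728 per library. By total counts alone, without TMM factors, 3 counts corresponded to 0.112 to 0.277 CPM, a floor that covers counting error only. Xist, the RNA of the inactive X chromosome, was at 0.624 to 11.8 CPM in all naive libraries and at 188 to 403 CPM in all MI libraries, so that the sex of the mice and MI cannot be told apart. Lyz2 was at 2282 and 2121 CPM in the naive controls and at 245 and 72.5 CPM in naive Vegfc-deficient M34 and M150, while M149, also labelled Vegfc-deficient, had 4565 CPM, above both naive controls. After MI it was at 4538 to 5380 CPM in the controls and at 12.4 to 1392 CPM in the Vegfc-deficient hearts. Whole-tissue Vegfc was at 21.9 to 45.5 CPM over all 11 libraries, with the genotypes overlapping in both states. The summed level of 8 cardiomyocyte markers was 101772 to 131610 CPM in the naive libraries and 3298 to 31076 CPM after MI, with none of the 8 at 0. In the same libraries 7 fibroblast markers summed to 4786 to 6674 CPM and to 29886 to 47496 CPM. In whole tissue, a change in the number of cells of a type and a change in RNA per cell cannot be told apart.

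Integrins are receptors made of 1 alpha and 1 beta chain that fasten cells to matrix or to other cells and signal across the membrane. The beta1 chain pairs with most matrix-binding alpha chains, the beta2 chain is restricted to leukocytes, and the alphav chain pairs with several beta chains that bind fibronectin, vitronectin and latent TGF-beta. Laminins are trimers of an alpha, a beta and a gamma chain that form the sheet of the basement membrane, which in the heart surrounds each cardiomyocyte and each capillary. Cardiomyocytes hold that sheet through the alpha7 and beta1 integrin chains, and infarct repair replaces muscle by a collagen and fibronectin scar.

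The RefSeq promoter table (build GRCm38.p6, 250 bases before to 50 after a start site) held 25 entries for 22 of the 36 genes. Those of the 2 matched genes with the largest rises after MI (Itga11 and Itga2) and the 2 with the largest falls (Itgb6 and Lamb3) are printed 5′ to 3′ on the gene's strand, because these 4 had the largest changes, averaged over both genotypes, among the matched genes called in both. In control hearts alone the fold was 9.74 for Itgb8 and 7.17 for Itga2, a difference that was not tested. Capitals mark GAGGAAG, the core bound by Ets factors such as PU.1, and GGGCGG, the GC box, each searched on both strands, so that a match on the opposite strand reads as its reverse complement. TGANTCA, the AP-1 motif, was searched as well. The windows are chr9:62677605-62677904 (plus strand), chr13:114932051-114932350 (minus strand), chr2:60722554-60722853 (minus strand) and chr1:193301744-193302043 (plus strand). The last of these is 1 of 2 entries for Lamb3 and starts inside the annotated gene, and Itgb6 also has 2 entries.
Itga11: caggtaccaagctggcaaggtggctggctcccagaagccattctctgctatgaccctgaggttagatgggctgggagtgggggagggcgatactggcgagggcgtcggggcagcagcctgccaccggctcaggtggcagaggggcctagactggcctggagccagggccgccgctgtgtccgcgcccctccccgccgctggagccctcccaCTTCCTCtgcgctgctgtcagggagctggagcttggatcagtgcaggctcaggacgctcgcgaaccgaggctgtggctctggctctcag
Itga2: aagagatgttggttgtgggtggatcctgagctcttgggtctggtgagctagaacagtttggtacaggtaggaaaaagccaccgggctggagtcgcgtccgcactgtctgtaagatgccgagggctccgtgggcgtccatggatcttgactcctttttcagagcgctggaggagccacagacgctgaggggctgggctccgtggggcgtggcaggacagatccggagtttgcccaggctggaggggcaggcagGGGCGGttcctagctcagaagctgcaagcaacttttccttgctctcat
Itgb6: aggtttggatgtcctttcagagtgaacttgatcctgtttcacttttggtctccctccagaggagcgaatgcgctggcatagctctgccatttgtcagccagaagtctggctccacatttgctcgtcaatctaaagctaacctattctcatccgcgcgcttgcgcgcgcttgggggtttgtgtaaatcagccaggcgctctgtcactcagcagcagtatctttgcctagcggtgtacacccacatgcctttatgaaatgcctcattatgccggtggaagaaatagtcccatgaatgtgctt
Lamb3: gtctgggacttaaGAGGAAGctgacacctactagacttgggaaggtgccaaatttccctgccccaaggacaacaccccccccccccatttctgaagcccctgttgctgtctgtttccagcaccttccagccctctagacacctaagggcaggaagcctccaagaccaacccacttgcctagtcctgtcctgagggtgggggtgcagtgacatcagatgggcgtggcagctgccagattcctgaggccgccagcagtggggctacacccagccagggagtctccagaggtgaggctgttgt
The Itga11 window held GAGGAAG on the opposite strand, the Itga2 window held GGGCGG and the Lamb3 window held GAGGAAG. The Itgb6 window shown held none of the 3 sets of letters. Over all 32851 promoters of the table, GAGGAAG was present in 13.6%, GGGCGG in 35.7% and TGANTCA in 7.81%. Among the 22 matched genes, 8 held GAGGAAG in an entry (Itga11, Itga2b, Itgam, Itgav, Itgb6, Itgb7, Lama2 and Lamb3), 11 held GGGCGG, and Itga3 and Itga9 held TGANTCA. These are matches of letters and not binding sites.

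After MI, integrin genes were mostly higher and laminin genes were not. Collagen-binding Itga11 and Itga2, the alphav chain Itgav with its partners Itgb3, Itgb5 and Itgb8, and the fibronectin receptor chain Itga5 rose in both genotypes, while the muscle laminin receptor Itga7 and the epithelial chains Itgb6 and Lamb3 fell in both. Between MI and naive control hearts, 15 of the 35 genes tested were higher and 4 were lower at an adjusted p under 0.05 (edgeR's quasi-likelihood test, Benjamini-Hochberg adjustment over all 14779 genes tested). Over all genes, 50.4% passed, 26.3% as higher and 24.1% as lower. In Vegfc-deficient hearts 17 were higher and 4 lower, against 57.6% of all genes called, 30.0% as higher and 27.7% as lower. The 25 integrin genes supplied 15 of the higher calls and 2 of the lower calls in each genotype. The 10 laminin genes tested supplied 0 higher and 2 lower calls in control hearts and 2 higher and 2 lower in Vegfc-deficient hearts. The median log2 fold change of the integrin genes was 1.07 in control and 1.04 in Vegfc-deficient hearts, that of the laminin genes -0.25 and 0.18, and that of all genes tested 0.13 and 0.10. Called higher in both genotypes were 14 genes, and called lower in both were 4.

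**Figure D1:**
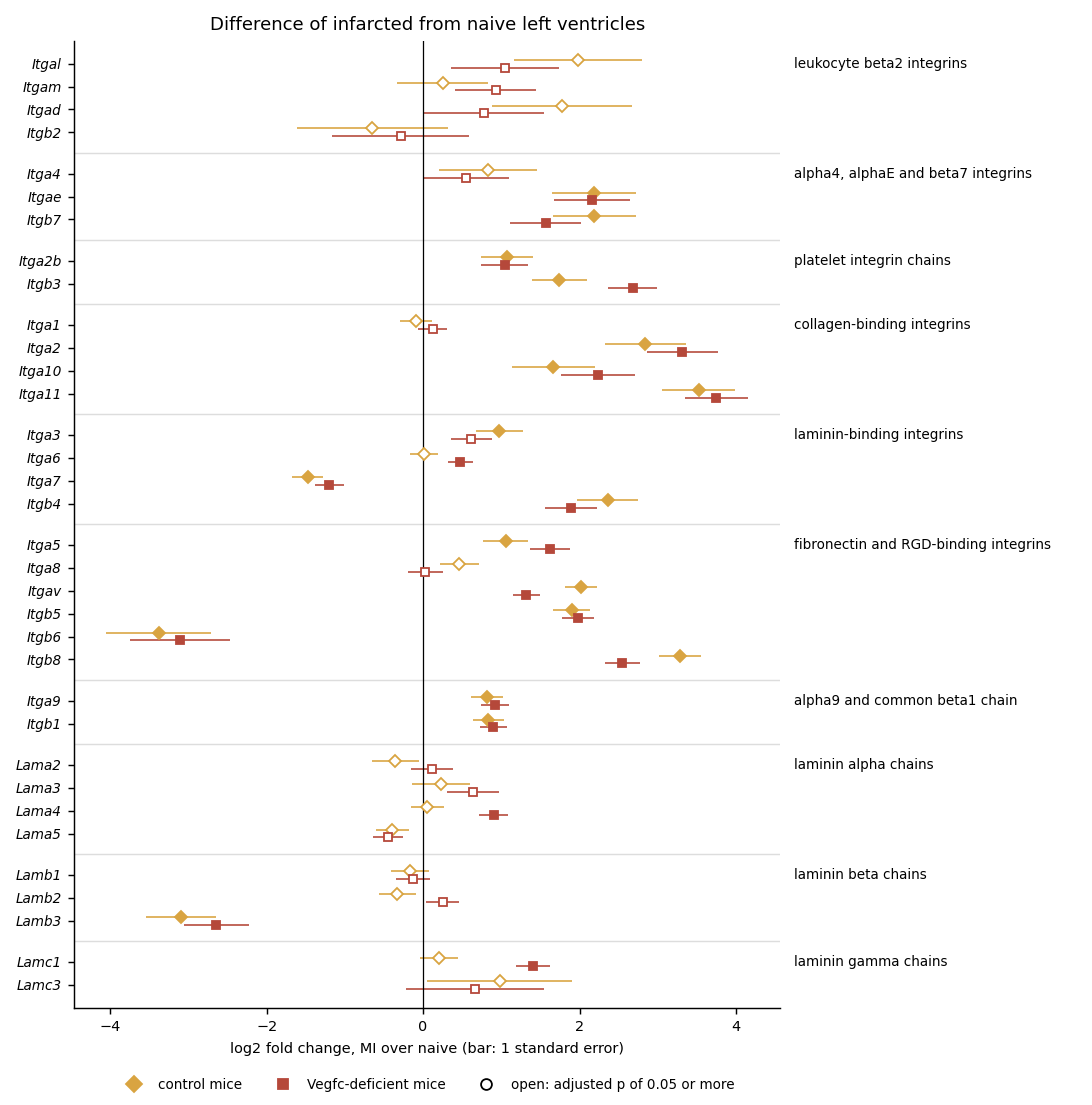
Log2 fold change of MI over naive left ventricles (horizontal axis, bars 1 standard error) for the genes described, grouped by role, in control mice (diamonds) and Vegfc-deficient mice (squares), filled where the adjusted p is under 0.05. Itga11 lies farthest to the right at 3.52 and 3.75, Itgb6 farthest to the left at -3.38 and -3.10, and most laminin chains lie near 0.

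Among the collagen-binding chains, Itga11 had the largest rise of the 35 genes tested in both genotypes. Itga11 (ENSMUSG00000032243, chromosome 9 from 62677826 to 62783982), the alpha chain of a receptor for fibrillar collagen found on fibroblasts, was at 3.81 and 6.33 CPM in naive control, 5.78, 5.45 and 2.84 CPM in naive Vegfc-deficient, 42.9, 40.5 and 91.5 CPM in MI control and 47.6, 68.0 and 74.0 CPM in MI Vegfc-deficient libraries. All MI libraries lay above all naive ones. The fold was 11.5 in control hearts (log2 fold change 3.52, standard error 0.47, adjusted p = 0.000398 by edgeR) and 13.5 in Vegfc-deficient hearts (3.75, standard error 0.40, adjusted p = 7.26e-05). Itga2 (ENSMUSG00000015533, chromosome 13 from 114833081 to 114932100), which pairs with beta1 on platelets and other cells as a collagen receptor, was at 1.18 and 0.446, then 1.14, 0.605 and 0.588 CPM in the naive groups and at 4.63, 7.05 and 5.91, then 4.88, 8.03 and 11 CPM in the MI groups. These levels are low, yet the groups did not overlap, and the folds were 7.17 and 9.96 (adjusted p = 0.00167 and 0.00021 by edgeR). Itga10, a collagen receptor chain known mainly from cartilage, was at 0.997 and 2.32, then 1.71, 0.605 and 1.57 CPM and after MI at 3.45, 5.98 and 6.46, then 8.99, 4.76 and 5.07 CPM. Its folds were 3.18 and 4.71 (adjusted p = 0.0235 and 0.00253 by edgeR), and the call in control hearts was lost without naive control M45 (log2 fold change 1.19) or without MI control M006 or M40. The annotated gene Gm42957 covers 33.53% of the exon bases of Itga10 on the same strand, and the files do not count that gene. Itga1, the remaining member of this class, spans all groups at 84.5 to 147 CPM and was not called (log2 fold changes -0.09 and 0.12).

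Chains that bind fibronectin and other ligands with the RGD motif formed the largest integrin class with 6 genes. Of these, 4 were called higher and 1 lower in each genotype. Over all genes, 26.3% were called higher and 24.1% lower in control hearts, and 30.0% and 27.7% in Vegfc-deficient hearts. Itgb5 (ENSMUSG00000022817, chromosome 16 from 33829665 to 33949338), a partner of alphav that binds vitronectin, was at 152 and 156, then 155, 143 and 147 CPM in the naive groups and at 511, 470 and 745, then 486, 647 and 620 CPM after MI. The naive libraries of both genotypes lay within 143 to 156 CPM, and the folds were 3.74 and 3.94 (standard errors 0.24 and 0.20 on the log2 scale, adjusted p = 0.000309 and 6.14e-05 by edgeR). Itgav was at 30.2 and 24.1, then 32.2, 38.6 and 36.5 CPM before and 101, 105 and 123, then 68.4, 97.3 and 102 CPM after MI, giving folds of 4.04 and 2.49 (adjusted p = 0.000165 and 0.000169 by edgeR). Itgb8 (ENSMUSG00000025321, chromosome 12 from 119158022 to 119238802), whose product activates latent TGF-beta, had the smallest adjusted p of the 35 genes in both comparisons. It was at 0.997 and 0.714, then 1.30, 1.69 and 1.57 CPM in naive and at 7.88, 8.18 and 9.10, then 9.58, 9.07 and 7.97 CPM in MI libraries. The MI libraries lay within 7.88 to 9.58 CPM whatever the genotype, and the folds were 9.74 and 5.84 (adjusted p = 9.24e-05 and 3.7e-05 by edgeR). Itga5, the alpha chain of the main fibronectin receptor, was at 41.0 and 45.3, then 42.4, 26.4 and 46.3 CPM before and at 84.4, 71.7 and 113, then 85.8, 131 and 138 CPM after MI, with folds of 2.08 and 3.08 (adjusted p = 0.0122 and 0.000494 by edgeR). In control hearts the call of Itga5 was lost when either naive control library was left out.

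Itgb6 (ENSMUSG00000026971, chromosome 2 from 60598292 to 60722643), the epithelial partner of alphav, went the other way. It was at 17.9 and 23.8, then 17.3, 16.5 and 10.6 CPM in naive libraries and at 3.18, 2.26 and 0.550, then 3.23, 1.45 and 0.587 CPM in MI libraries. Levels after MI were 10.4-fold and 8.60-fold lower (log2 fold changes -3.38 and -3.10, standard errors 0.67 and 0.64, adjusted p = 0.00239 and 0.00224 by edgeR), without overlap. M40 and M900, which had the lowest Itgb6 of their groups, also had the lowest cardiomyocyte marker sums of their groups, 3298 and 7046 CPM, a part in the result that was not tested. The summed level of 8 epithelial and mesothelial markers was 26.7 to 39.2 CPM in naive and 40.7 to 166 CPM in MI libraries, so it did not fall with Itgb6, and Epcam stayed at or below 0.726 CPM. Of 6 lung epithelium markers, Sftpa1 was at 0 in every library, and the 6 summed to at most 2.55 CPM. Scgb1a1 of that list, at 0 to 2.16 CPM in naive and at most 0.0538 CPM in MI libraries, was called lower in both genotypes like Itgb6 (adjusted p = 0.017 and 0.0238 by edgeR), and Ager, at 0.121 to 0.732 CPM in naive and 0.839 to 2.38 CPM in MI libraries, was called higher in both. Itga8, an RGD-binding chain of smooth muscle and mesenchyme, was at 11.8 to 22.5 CPM over all libraries and was not called (log2 fold changes 0.46 and 0.03).

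**Figure D2:**
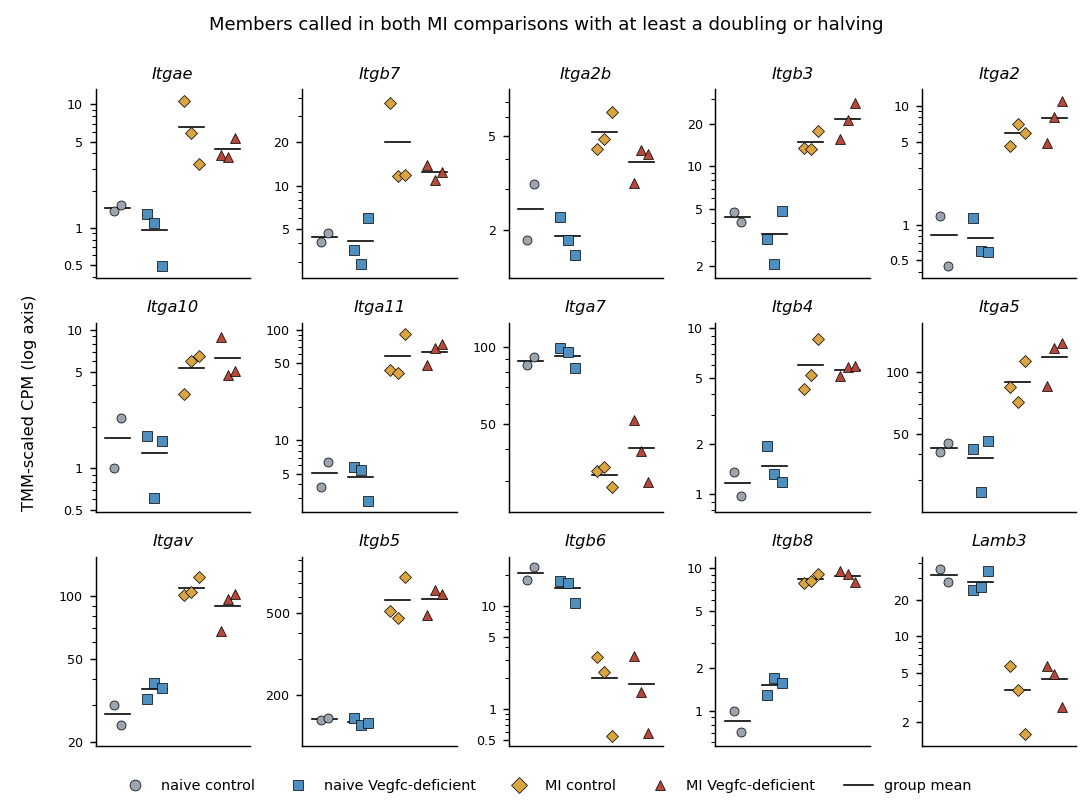
TMM-scaled CPM per library (log axis, scaled per panel) of the 15 genes called in both genotypes whose log2 fold change was 1 or more in size; symbols mark the 4 groups and lines their means. In 12 panels the MI groups lie above the naive ones, and in Itga7, Itgb6 and Lamb3 they lie below, without overlap within a genotype.

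Among laminin-binding chains, Itga7, the receptor chain of cardiomyocytes and skeletal muscle, was at 85.2 and 91.2, then 99.0, 95.3 and 82.7 CPM in naive hearts and at 32.7, 34.1 and 28.5, then 51.8, 39.2 and 29.8 CPM after MI. It was 2.78-fold lower in control and 2.29-fold lower in Vegfc-deficient hearts (log2 fold changes -1.47 and -1.20, adjusted p = 0.000426 and 0.000405 by edgeR). This fall was smaller than those of the cardiomyocyte markers Tnni3 (11.6-fold and 9.22-fold lower) and Myl3 (8.96-fold and 9.42-fold lower), a difference that was not tested. Both were among the largest falls of the 8 cardiomyocyte markers. The median log2 fold change of the 8 was -3.13 in control and -2.65 in Vegfc-deficient hearts. Itgb4, the hemidesmosome chain, moved up from 1.36 and 0.981, then 1.95, 1.33 and 1.18 CPM to 4.29, 5.22 and 8.55, then 5.11, 5.80 and 5.87 CPM, with folds of 5.13 and 3.72 (adjusted p = 0.00108 and 0.000858 by edgeR). Itga3 was at 3.53 to 6.02 CPM in naive and 6.36 to 11.4 CPM in MI libraries and was called in control hearts (log2 fold change 0.98, adjusted p = 0.0214) and not in Vegfc-deficient hearts (0.62, adjusted p = 0.0664). Itga6, abundant in endothelium, was called in Vegfc-deficient hearts, from 87.1, 70.7 and 102 CPM to 134, 109 and 120 CPM (log2 fold change 0.48, adjusted p = 0.0274 by edgeR). In control hearts its log2 fold change was 0.01 (adjusted p = 0.957). The Itga6 call was lost when a trend on transcript length was removed (log2 fold change 0.16, adjusted p = 0.364) and without any one of M34, M150, M35 or M900, and the Itga3 call without M45 or M40. Itga9, which binds tenascin and osteopontin, and Itgb1 rose in both genotypes, Itga9 by 1.77-fold and 1.88-fold and Itgb1 by 1.78-fold and 1.86-fold. In control hearts the Itga9 call was lost without M44 (adjusted p = 0.0566) and the Itgb1 call without M45 (adjusted p = 0.0522). Itgb1 was the most abundant of the 36 genes per kilobase of exon, at 145 to 159 CPM per kilobase in naive and 250 to 310 CPM per kilobase in MI libraries. Over the same libraries the 12 alpha chains that pair with it summed to 46.5 to 51.0 and 68.0 to 92.0 CPM per kilobase.

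The platelet chains Itga2b and Itgb3, which together form the fibrinogen receptor, were both called higher, although Itgb3 also pairs with alphav on other cells. Itgb3 was at 4.80 and 4.10, then 3.09, 2.06 and 4.90 CPM in naive and at 13.6, 13.3 and 17.8, then 15.6, 21.4 and 27.9 CPM in MI libraries, with folds of 3.34 and 6.41 (adjusted p = 0.00265 and 0.000105 by edgeR). Itga2b, which is restricted to the platelet lineage, was lower in level and in change, at 1.81 and 3.12, then 2.28, 1.82 and 1.57 CPM before and 4.43, 4.84 and 6.31, then 3.17, 4.35 and 4.19 CPM after MI (folds 2.10 and 2.06, adjusted p = 0.0214 and 0.0126 by edgeR). In control hearts the Itga2b call was lost without naive control M45 (log2 fold change 0.74) or MI control M40. The other 7 platelet markers summed to 126 to 151 CPM in naive and 41.4 to 72.4 CPM in MI libraries. Pf4, a platelet chemokine that is 1 of the 7 and part of that sum, was 2.82-fold and 2.13-fold lower. Only 4 of these 7 passed the filter on low counts. In control hearts 1 was called higher and 1 lower, and in Vegfc-deficient hearts 0 higher and 1 lower, beside 50.4% and 57.6% of all genes called.

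Of the 3 lymphocyte and mucosal chains, Itgae and Itgb7 rose in both genotypes and Itga4 had no call. Over all genes, 26.3% were called higher in control hearts and 30.0% in Vegfc-deficient hearts. Itgae and Itgb7 together form the receptor for E-cadherin on intraepithelial T cells and on some dendritic cells. Itgae was at 1.36 and 1.52, then 1.30, 1.09 and 0.490 CPM in naive and at 10.6, 5.81 and 3.30, then 3.88, 3.73 and 5.37 CPM in MI libraries, with folds of 4.56 and 4.46 (adjusted p = 0.00715 and 0.00353 by edgeR). Itgb7 was at 4.08 and 4.73, then 3.58, 2.90 and 5.98 CPM in naive and at 36.7, 11.6 and 11.9, then 13.9, 11 and 12.3 CPM in MI libraries, with folds of 4.56 and 2.97 (adjusted p = 0.00659 and 0.0132 by edgeR). MI control M38 was the highest library in both genes, and it also had the highest sum of the 7 T cell markers matched, 182 CPM against 17.5 and 30.9 CPM in the other MI controls. Its sum of 7 dendritic cell markers was 2115 CPM against 212 to 490 CPM in every other library, and the part of either cell type in the result was not tested. Without M38 the log2 fold changes in control hearts were 1.59 for Itgae and 1.35 for Itgb7 (adjusted p = 0.0167 and 0.0076 by edgeR), so both stayed called. Without naive control M45 they were 2.11 and 2.09 and no longer called (adjusted p = 0.0593 and 0.0577). In Vegfc-deficient hearts the Itgb7 call was lost without naive library M150 (log2 fold change 1.38).

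The leukocyte beta2 chains had no call in either genotype with all libraries, and here the naive libraries differed most among themselves. Itgb2 (ENSMUSG00000000290, chromosome 10 from 77530252 to 77565708), the chain shared by all beta2 integrins, was at 200 and 150 CPM in naive control, at 32.4, 24.4 and 427 CPM in naive Vegfc-deficient, at 150, 62.8 and 121 CPM in MI control and at 90.9, 139 and 167 CPM in MI Vegfc-deficient libraries. M149 thus lay above every other library, and M34 and M150 lay below every other library. Itgam, the alpha chain of the complement receptor of macrophages and neutrophils, was likewise highest in M149 and lowest in M34 and M150 among the naive libraries, at 47.1 and 43.3, then 17.7, 20.1 and 90.2 CPM, and was at 54.7, 38.1 and 68.5, then 74.6, 73.7 and 95.1 CPM after MI. Itga4, the chain by which monocytes and lymphocytes bind vascular adhesion molecules, was at 10.1 and 11.4, then 5.45, 4.12 and 25.8 CPM before and at 14.9 to 25.7 CPM after MI. Itgax, outside the 36 genes, was at 102 and 91.1, then 6.92, 5.57 and 235 CPM before and at 29.9 to 88.5 CPM after MI. In all 4 genes M149 was the highest and M34 and M150 the lowest naive libraries. The same held in Lyz2, the locus in which LysMCre places the recombinase. M34 lay above M150 in Lyz2 and below it in Itgam.

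With M149 in the fit, the log2 fold change of MI over naive in Vegfc-deficient hearts was -0.29 for Itgb2 (standard error 0.87), 0.93 for Itgam (standard error 0.52) and 0.55 for Itga4 (standard error 0.55), with adjusted p-values of 0.792, 0.149 and 0.406 by edgeR. Without M149 these became 2.21, 2.10 and 1.85, all called (adjusted p = 0.00146, 0.000234 and 0.000629 by edgeR), and the number of the 35 genes called higher in that comparison went from 17 to 20, with 4 lower as before. The share of all genes called in that fit was 56.6%. In control hearts the log2 fold changes were -0.65 for Itgb2, 0.25 for Itgam and 0.83 for Itga4, none called. M149 is in neither group of that comparison but is part of the same fit, and without it Itga4 was called there as well (adjusted p = 0.0229 by edgeR). The interaction without M149 was 2.86 for Itgb2, 1.85 for Itgam and 1.01 for Itga4 on the log2 scale, with adjusted p-values of 0.121, 0.108 and 0.349. Itgal, the lymphocyte chain, was at 3.03 to 6.67 CPM in naive and 5.33 to 31.2 CPM in MI libraries, the highest again M38, and its log2 fold change in control hearts went from 1.98 (adjusted p = 0.0651) to 0.54 without M38, and it was called by DESeq2 (adjusted p = 0.02) and without M006 or M40. Itgad stayed at or below 0.981 CPM and was not called. Gm49368, an annotated gene that the files do not count, covers 68.67% of the exon bases of Itgam on the same strand.

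**Figure D3:**
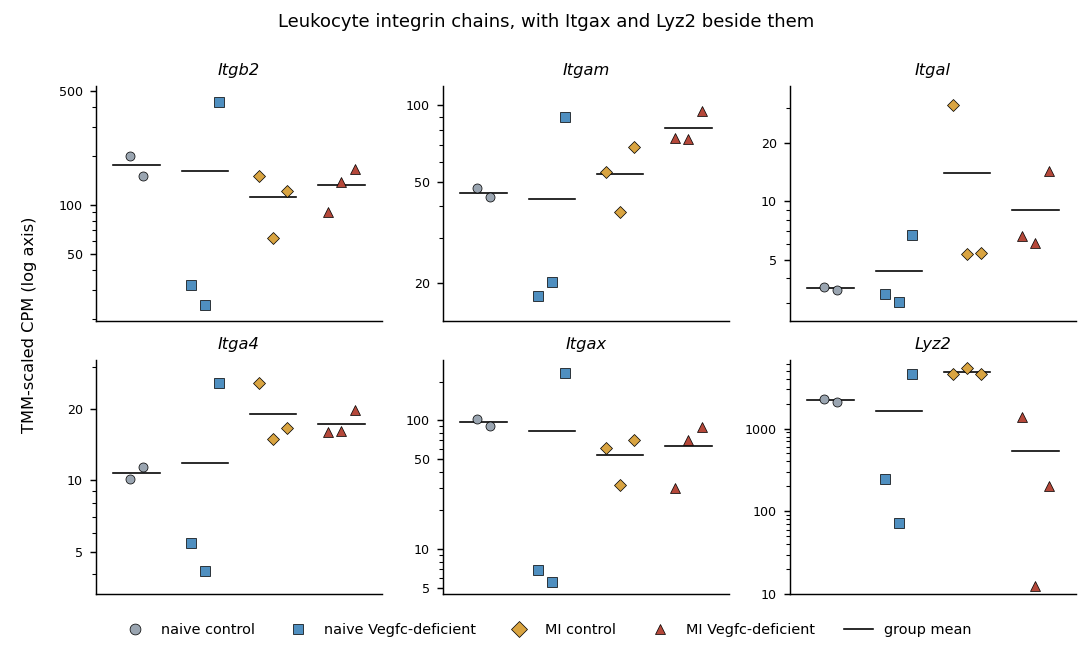
TMM-scaled CPM per library (log axis, scaled per panel) of Itgb2, Itgam, Itgal and Itga4, with Itgax and Lyz2 beside them; lines are group means. In all panels the 3 naive Vegfc-deficient libraries split, with M149 on top (427 CPM in Itgb2) and M34 and M150 at the bottom (32.4 and 24.4 CPM).

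Laminin genes were described per kilobase of exon, so that chains can be compared with each other. In every group 2 alpha chains made up most of the alpha total, Lama2 of the muscle basement membrane and Lama4 of vessels. Lama4 was 50.4% ± 3.11 (SD, n = 2) of the alpha total in naive control, 44.4% ± 2.24 (SD, n = 3) in naive Vegfc-deficient, 57.5% ± 0.424 (SD, n = 3) in MI control and 60.0% ± 6.03 (SD, n = 3) in MI Vegfc-deficient hearts. Lama2 was 38.5% ± 2.34, 42.2% ± 1.81, 32.5% ± 2.73 and 32.3% ± 6.67 (SD) of it in the same groups. Lamb1 and Lamb2 shared the beta total, at 48.9% and 43.5% in naive control and 54.3% and 44.6% in MI control hearts. The laminin genes together were at 101 to 126 CPM per kilobase in naive and 91.2 to 178 CPM per kilobase in MI libraries, while the integrin genes went from 250 to 416 to 500 to 677 CPM per kilobase.

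Lamb3, a laminin beta chain of epithelia, had the largest fall among the laminin genes. Lamb3 (ENSMUSG00000026639, chromosome 1 from 193207699 to 193343878) was at 35.6 and 27.6, then 23.8, 25.4 and 34.3 CPM in naive and at 5.75, 3.66 and 1.61, then 5.76, 4.97 and 2.68 CPM in MI libraries. It was 8.57-fold lower in control and 6.26-fold lower in Vegfc-deficient hearts (log2 fold changes -3.10 and -2.65, standard errors 0.45 and 0.42, adjusted p = 0.000546 and 0.00049 by edgeR), with every MI library below every naive one. As for Itgb6, M40 and M900 were the lowest of their groups in both Lamb3 and the cardiomyocyte markers. Lama3, an alpha chain of epithelial laminin, was at 1.33 to 2.94 CPM in all but 1 library, MI Vegfc-deficient M35 at 3.41 CPM, and was not called.

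Lamc1 and Lama4 were called in the Vegfc-deficient comparison and not in the control comparison. Lamc1 (ENSMUSG00000026478, chromosome 1 from 153218922 to 153332786), the gamma chain of most laminins, was at 254 and 258 CPM in naive control, 178, 182 and 180 CPM in naive Vegfc-deficient, 216, 384 and 284 CPM in MI control and 584, 424 and 416 CPM in MI Vegfc-deficient libraries. The fold of MI over naive was 2.64 in Vegfc-deficient hearts (log2 fold change 1.40, standard error 0.22, adjusted p = 0.000446 by edgeR) and 1.15 in control hearts (0.20, standard error 0.24, adjusted p = 0.499). Lama4 was at 170 and 192, then 136, 147 and 129 CPM before and 150, 250 and 165, then 261, 237 and 272 CPM after MI, with a fold of 1.87 in Vegfc-deficient hearts (adjusted p = 0.00246 by edgeR) and 1.04 in control hearts (adjusted p = 0.844). The difference between the genotypes in the response to MI was 1.20 on the log2 scale for Lamc1 (standard error 0.32, unadjusted p = 0.0036 and adjusted p = 0.534 by edgeR's interaction test) and 0.85 for Lama4 (unadjusted p = 0.0123, adjusted p = 0.543), so it did not pass for either gene. The DESeq2 Wald test called the interaction for Lamc1 (adjusted p = 0.0499). Lama2, Lama5, Lamb1, Lamb2 and Lamc3 had no call in either genotype, and their log2 fold changes ran from -0.45 for Lama5, the alpha chain of mature vessel and epithelial basement membranes, in Vegfc-deficient hearts to 0.98 for Lamc3, which stayed at or below 3.16 CPM, in control hearts. Lama1 was at 0 in the 3 naive Vegfc-deficient libraries and at 0.290 to 0.646 CPM in MI Vegfc-deficient libraries. With TMM factors, 2 counts were 0.242 CPM in M150 and 4 counts were 0.392 CPM in M149. The limit of 3 counts in those libraries thus lies near the lowest MI value.

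**Figure D4:**
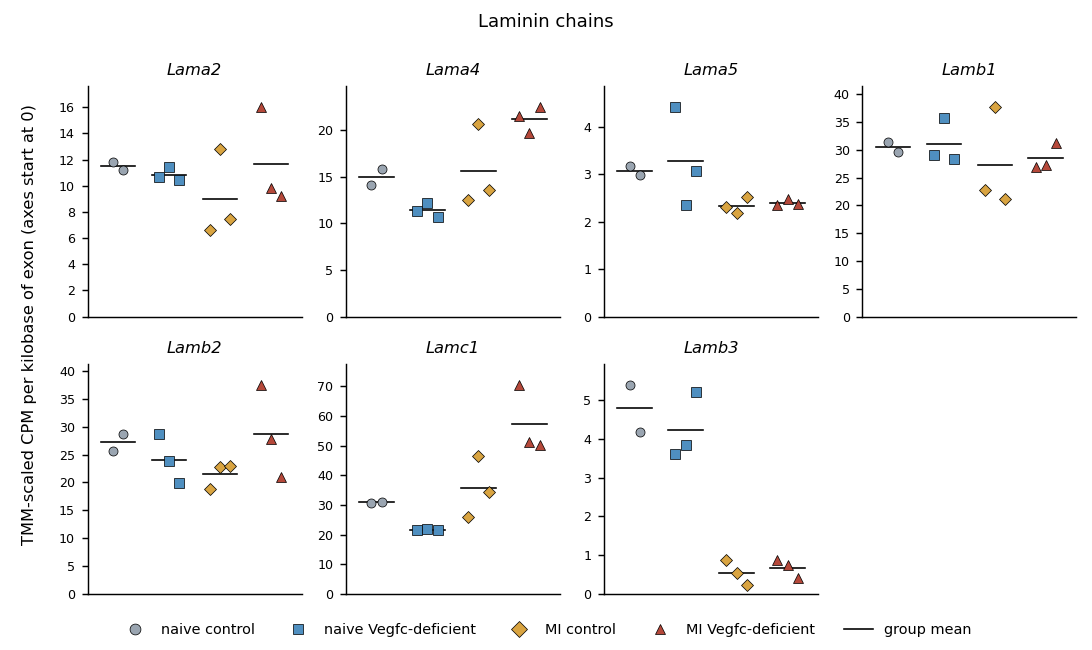
TMM-scaled CPM per kilobase of exon per library (linear axes from 0) of 7 laminin chains; lines are group means. Lamc1 lies at 21.5 to 22.0 CPM per kilobase in naive Vegfc-deficient and 50.3 to 70.5 CPM per kilobase in MI Vegfc-deficient libraries, and Lamb3 lies lower after MI in both genotypes.

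The genotypes after MI, the comparison that addresses the role of myeloid Vegfc in the infarcted heart, differed in 0 of the 35 genes and in 0% of all genes tested by edgeR. DESeq2 and limma-voom called 0 of the 35 as well, and 62 and 0 of all genes. At an unadjusted p under 0.05 there were 2 of the 35, Lamc1 and Lama4, against 7.94% of all genes. The groups did not overlap in 3 of the 35, Itgam and Lamc1 above and Itga2b below, against 12.1% of all genes. Lamc1 was higher by 0.69 on the log2 scale (standard error 0.22, unadjusted p = 0.00914, adjusted p = 0.584), with the lowest Vegfc-deficient library at 416 CPM and the highest control at 384 CPM. For Lama4 the value was 0.45 (standard error 0.19, adjusted p = 0.615), and control M006 at 250 CPM lay within the Vegfc-deficient range of 237 to 272 CPM. Next by unadjusted p came Itgb3 at 0.54 and Lamb2 at 0.41 (both with an adjusted p of 0.657), and their groups overlapped. M149 is in neither group but is part of the same fit. Without it Itgam stood at 0.59 with a standard error of 0.20 in place of 0.51. Its unadjusted p was then 0.0153 and that of Itgb3 0.0456 (adjusted p = 0.566 and 0.589 by edgeR). That fit called 0 of all genes, and its share at an unadjusted p under 0.05 is not given. Lamb2, the chain of neuromuscular, arterial and muscle basement membranes, was at 115, 139 and 140 CPM in the MI controls and at 228, 168 and 128 CPM in the Vegfc-deficient hearts.

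Of the 10 laminin genes tested, 9 had a positive log2 fold change in this comparison, with a median of 0.24, beside -0.01 for all genes. The integrin genes had 14 positive and 11 negative values and a median of 0.03. MI control M38, high in T cell markers, was the lowest MI control library in Lamc1, Lama4, Lama2 and Lamb2. Fold changes in this comparison rose with transcript length by 0.11 on the log2 scale per doubling of length, and the median exon length was 7015 bases for the 35 genes and 4326 bases for all genes. The blood endothelium marker sum was 602 to 1275 CPM in MI control and 844 to 993 CPM in MI Vegfc-deficient libraries. With the length trend removed, the log2 fold change was 0.62 for Lamc1 and 0.34 for Lama4 (unadjusted p = 0.0121 and 0.0792 by edgeR), and those of Lama5 and Lamb1 turned from 0.04 and 0.07 to -0.07 and -0.02. The part of M38 and of the endothelial marker level in the laminin values was not tested.

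In naive hearts, 0 of the 35 genes and 0% of all genes differed between the genotypes by edgeR. DESeq2 and limma-voom called 0 of the 35 too, and 14 and 6 of all genes. An unadjusted p under 0.05 was reached by 1 of the 35, Itgb8, against 3.38% of all genes. Groups without overlap were found for 8 of the 35, Itgav and Itgb8 above and Itga1, Itga6, Itgae, Itgb6, Lama4 and Lamc1 below, against 22.4% of all genes. The value for Itgb8 was 0.82 on the log2 scale (standard error 0.28, unadjusted p = 0.0335) at levels of 0.714 to 1.69 CPM. For Lamc1 it was -0.51 (standard error 0.24), with 178 to 182 CPM in Vegfc-deficient and 254 and 258 CPM in control hearts. Itgav at 0.40 and Lama4 at -0.40 came next, and all 4 had an adjusted p of 1. Without M149, Itgb2 stood at -2.62 on the log2 scale (standard error 0.42, unadjusted p = 0.000132, adjusted p = 0.0734 by edgeR) in place of -0.11, and Itgam -1.26 (adjusted p = 0.162) in place of -0.08. The count of the 35 genes called was 0 in that fit too, which called 17 of all genes.

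**Figure D5:**
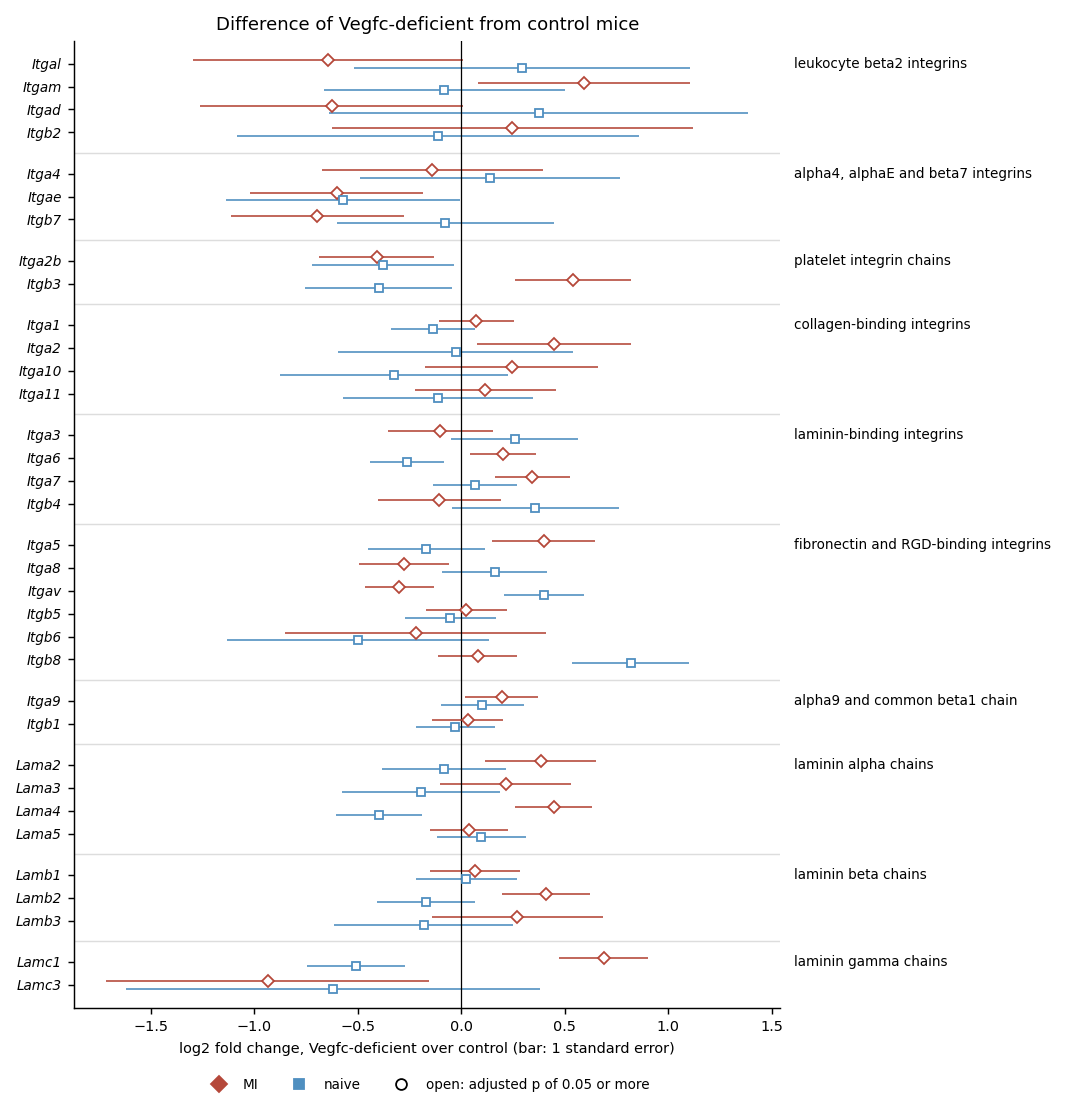
Log2 fold change of Vegfc-deficient over control mice (horizontal axis, bars 1 standard error) for the genes described, after MI (diamonds) and in naive hearts (squares); all symbols are open because every adjusted p was 0.05 or more. Lamc1 lies at 0.69 after MI and -0.51 in naive hearts, and Lama4 at 0.45 and -0.40.

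By edgeR's interaction test, 0 of the 35 genes and 0% of all genes had a response to MI that depended on genotype at an adjusted p under 0.05. DESeq2 called 1 of the 35, Lamc1, and 58 of all genes, and limma-voom 0 and 0. Unadjusted, 3 of the 35 had a p under 0.05, Lamc1, Lama4 and Itgav, against 8.30% of all genes. Itgav had an interaction of -0.70 on the log2 scale (unadjusted p = 0.0205, adjusted p = 0.549), with its rise being 4.04-fold in control and 2.49-fold in Vegfc-deficient hearts. Without M149 the smallest p-values of the 35 were those of Itgam and Itgb2 (unadjusted p = 0.000252 and 0.00034, adjusted p = 0.108 and 0.121 by edgeR). Lamc1 came next (unadjusted p = 0.00788, adjusted p = 0.29 by edgeR). None of the 35 was called in that fit, which called 1 of all genes.

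Genes that work with these receptors were described from 3 lists, whose counts stand beside 50.4% of all genes called after MI in control hearts and 57.6% in Vegfc-deficient hearts. Of 11 partners of laminin in the basement membrane, 8 were higher and 2 lower after MI in each genotype. Col18a1, which carries endostatin, rose 9.48-fold in control and 9.30-fold in Vegfc-deficient hearts, Col15a1 rose 2.32-fold and 4.68-fold, and Col4a2, a chain of the network-forming collagen of the basement membrane, 2.04-fold and 3.99-fold. Bcam, a laminin receptor of the immunoglobulin family, was 2.92-fold and 2.05-fold lower. Between the MI groups all 11 partners had a positive log2 fold change with a median of 0.29, and 0 were called by edgeR, 3 of them at an unadjusted p under 0.05. Over all 14779 genes in that comparison, 7227 had a positive value and the median was -0.01. Of them 0 were called, and 7.94% had an unadjusted p under 0.05 by edgeR. Without M45 fewer of the 11 were called in control hearts. That fit held 1 naive control library, and its share of all genes called is not given. Of 9 integrin ligands tested, 7 were higher and 2 lower in each genotype. Tnc, the matrix protein bound by alpha9 integrin, rose 54.0-fold and 29.6-fold, Postn, a secreted integrin ligand that is also 1 of the fibroblast markers used here, 51.4-fold and 23.0-fold, Fn1, fibronectin, 12.6-fold and 12.3-fold, and Cdh1, the ligand of the Itgae and Itgb7 pair, 8.68-fold and 12.5-fold. Madcam1, the ligand of the Itga4 and Itgb7 pair, did not pass the filter on low counts.

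Of 27 genes of the intracellular adhesion machinery tested, 12 were higher and 8 lower in control hearts and 16 higher and 5 lower in Vegfc-deficient hearts, again beside 50.4% and 57.6% of all genes called. Actn1, an actin crosslinker of focal adhesions, rose 6.48-fold and 8.23-fold, Ptk2b, a kinase related to focal adhesion kinase, 5.40-fold and 4.66-fold, and Src 3.97-fold and 5.43-fold. Itgb1bp2, a muscle protein that binds the tail of the beta1 chain, was 8.08-fold and 7.84-fold lower. Leaving out naive control M45 or M44 lowered the count of these genes called in control hearts. Those fits left the other naive control library alone in its group. Their shares of all genes called are not given, so the drop is not a result about this list. Fermt1 of this list had 0 counts in every library.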

How the data were processed

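Libraries were made with a stranded mRNA kit from left ventricular RNA and sequenced on an Illumina HiSeq instrument. The submitters' processing notes name cutadapt 1.13, STAR, HTSeq 0.6.1p1, DESeq2 1.14.1 and build mm10. What the authors deposited are whole-number read counts for each Ensembl gene, not normalized. Annotation release and strand setting are not given in the sources used here, so for members with an exonic neighbour on the opposite strand (Itga4 with Cerkl, Itga8, Itgad, Itga7, Itgb4, Itgav, Lama2, Lama3 and Lamc3) the origin of shared reads is open. Gene positions, symbols and merged exon lengths came from GENCODE on GRCm38. Each library carries its own mouse number in the labels, so p-values measure the spread between these mice.

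Counts were analysed with edgeR 4.0.16 in R 4.3.3. Genes were filtered by filterByExpr, TMM factors set library scale, and differences were tested by quasi-likelihood F-tests, all 11 libraries sharing 1 model whose only term was group. P-values were adjusted by Benjamini-Hochberg over 14779 genes at a threshold of 0.05. CPM per kilobase divides TMM-scaled CPM by merged exon length. Alternatives were RLE and upper-quartile factors, other filters, DESeq2 1.42.0, limma-voom (limma 3.58.1) with sample quality weights, fits of the compared groups alone, stricter thresholds, a transcript-length trend removed per library, and each library left out. The members and lists were chosen with earlier results of these data known. Full values are given for members called in both MI comparisons whose log2 fold change was 1 or more in size in both and for the 4 members with the smallest p in each genotype comparison. Of each list, the genes called in both MI comparisons with the largest changes, up to 4, could be named. Epcam, Sftpa1, Scgb1a1, Ager, Fermt1, Madcam1, the promoters and the motifs were chosen after values were seen. Replicates of a group differed beyond counting noise, with a chi-square per degree of freedom of 8.65 to 172. The test was also tried on simulated counts in which few genes changed, unlike the MI comparisons, and that trial is not used as support here. The values of 1 laminin gene that entered the fits and counts are not reported here.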

Additional observations from a re-analysis of the deposited data

How the results depend on the processing

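In MI against naive control hearts, 19 members were called with all libraries and 11 to 21 when each library was left out, 8 to 16 of them higher. The lowest counts were those without naive control M45, which leaves that group with 1 library that is assumed to vary like the other groups. The share of all genes called in that fit is not given, so the drop is not a result about these members. Under the other alternatives 14 to 20 were called. In Vegfc-deficient hearts 21 were called with all libraries, 19 to 24 when each library was left out and 16 to 24 under the other alternatives. The share of all genes called moved as well. In control hearts it was 47.2% with the compared groups alone and 57.3% by limma-voom. In Vegfc-deficient hearts it was 54.2% with the length trend removed and 63.8% by limma-voom. For other filters, stricter thresholds and most left-out libraries it is not given, so these ranges are not a result about the members. No member was called between the genotypes after MI or in naive hearts by edgeR, DESeq2 or limma-voom. The interaction called 0 members, and 1, Lamc1, by the DESeq2 Wald test; the cause was not tested. Upper-quartile scaling moved the median log2 fold change of all genes in control hearts from 0.13 to 0.23, and that of the members from 0.83 to 0.93. Removing the length trend gave 0.64 and 0.62 for the members in control and Vegfc-deficient hearts, in place of 0.83 and 0.90. Lama5, not called with all libraries, was called lower in Vegfc-deficient hearts under RLE scaling, DESeq2, limma-voom, removal of the length trend and without M150, and in control hearts when the length trend was removed, in a fit of the compared groups alone and without M34. Leaving out M149 and M38 together, chosen after seeing the data, gave 19 and 24 members called in the MI comparisons. The share of all genes called in that fit is not given. No paired analysis was possible because the groups share no replicate number. Depth limits Lama1 and Itgad, which lie near the level of 3 counts.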
